A study of Salix viminalis with 12 samples.

Results

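Heat shock proteins and chaperones help other proteins to fold, hold unfolded proteins until they can be refolded, and take part in their removal. HSP70 binds exposed hydrophobic stretches in a cycle driven by ATP, in which DnaJ proteins (also called HSP40 or J-proteins) bring the client and start the hydrolysis, and HSP90 takes over clients such as kinases and receptors. Small heat shock proteins hold clients without ATP, chaperonins fold proteins inside a closed ring, and heat shock factors switch on the genes of the family.

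The family was taken from the annotation of the root transcriptome of *Salix viminalis* (basket willow), as every contig whose description names a heat shock protein, HSP20, HSP70, HSP90, DnaJ or a chaperonin. A contig is here a coding sequence predicted on an assembled transcript. A further condition, that the description does not name a thioredoxin, removed 0 contigs. The members were 1159 of the 64173 contigs with an Arabidopsis code (1.81%), and they carried the codes of 157 of 13764 Arabidopsis genes (1.14%). A code is that of the Arabidopsis gene model listed for a contig, so that each gene below stands for the willow sequences assigned to it. Of the 157 genes, 49 had a gene symbol in the table and 108 had none.

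The roots came from cuttings of a single individual, grown as 4 groups with 3 libraries each, 12 in all. Plants on control soil were kept at 23/20 °C (day/night, CT) or cold-acclimated at 7/5 °C (CC), and plants on soil spiked with Cd (1.5 ppm), Cu (175 ppm), Ni (30 ppm) and Zn (500 ppm) were kept under the same temperate (MT) or cold (MC) conditions, with 40 days in the pots before the cold. The treatment labels of the libraries give 22 °C and 4 °C instead. All groups share the clone, and 1 merged assembly serves them all. The table analysed here has 5 columns of names and text and 0 columns of values for single libraries. The depth of the libraries can therefore not be read from it, the root identity of the samples could not be checked against markers, and no level of a chaperone could be compared between CT, CC, MT and MC. What it gives is the number and origin of the contigs assigned to each gene. This number is neither an expression level nor a number of willow genes, and it has no replicates, so that classes are set side by side without a test.

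The contigs were spread very unevenly over the family. The 5 genes with 50 or more contigs were the cytosolic HSP70 (AT3G12580) with 134 contigs, HSP90.1 (AT5G52640) with 130, HSP90.4 (AT5G56000) with 103, BIP2 (AT5G42020) with 72 and HSC70-1 (AT5G02500) with 55. Together they held 494 contigs, 42.6% of the family, and 9 genes were enough to reach 50%. HSP70 was in place 11, HSP90.1 in place 12 and HSP90.4 in place 16 when all 13764 genes were ordered by contigs, and 48 genes of the whole table had 50 contigs or more. The other 152 members had a median of 3 contigs (quartiles 2 and 5), which is also the median and the quartiles of all genes of the table. A single contig was assigned to 26 members (16.6%), beside 22.3% of all genes. There were 18 members (11.5%) with 10 or more contigs, beside 8.74% of all genes.

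**Figure D1:**
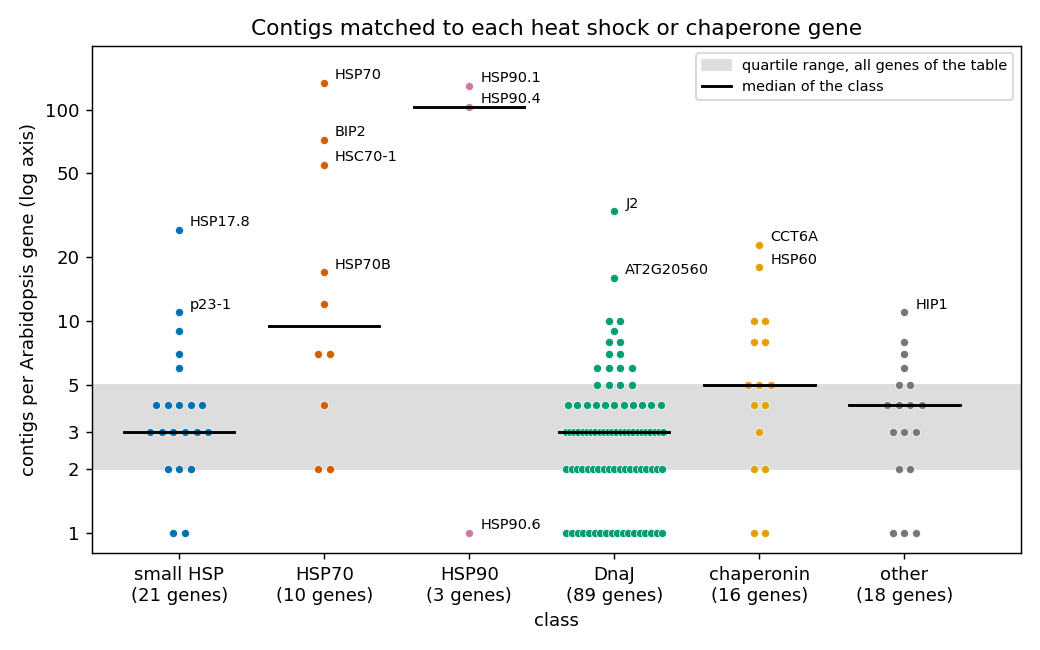
Contigs per Arabidopsis gene (y axis, log scale) for the 157 members by class, 1 point per gene, with the median of each class as a black line and the quartile range of all 13764 genes of the table (2 to 5 contigs) in grey. HSP70 and HSP90 hold the 5 genes with 50 or more contigs, and most DnaJ and small HSP genes lie within the grey band.

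The 5 main classes differed in how many genes and how many contigs they contributed. DnaJ was the widest class, with 89 genes and 324 contigs, a median of 3 contigs per gene (quartiles 2 and 4). HSP70 had almost as many contigs, 312, but on 10 genes, with a median of 9.5 (quartiles 4.75 and 45.5). HSP90 had 234 contigs on 3 genes, with a median of 103. The chaperonins had 109 contigs on 16 genes, with a median of 5 (quartiles 2.75 and 8.5), and the small HSPs 106 contigs on 21 genes, with a median of 3 (quartiles 3 and 4). The remaining 74 contigs belonged to 18 genes that carry one of the words of the rule but are none of these chaperones. They are described last.

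HSP70 proteins are found in the cytosol, the endoplasmic reticulum (ER), mitochondria and plastids, and the contigs followed this division unevenly. The 3 cytosolic genes held 206 of the 312 contigs of the class. Among them HSP70 (AT3G12580) had 134 contigs, HSC70-1 (AT5G02500), named as a constitutive or cognate form, 55, and HSP70B (AT1G16030) 17. The ER genes had 79 contigs, of which 72 belonged to BIP2, the lumenal HSP70 that binds newly imported proteins, and 7 to HSP70-17 (AT4G16660). The plastid forms cpHSC70-1 (AT4G24280) and cpHSC70-2 (AT5G49910) had 4 and 2 contigs. HSP70-15 (AT1G79920) and HSP70-16 (AT1G11660) belong to the HSP110 type, large relatives that exchange the nucleotide of HSP70, and had 12 and 7 contigs. The truncated HSP70T-2 (AT2G32120) had 2. The leading gene alone accounted for 42.9% of the class. The words of the rule left out a mitochondrial HSP70, MTHSC70-2 (AT5G09590), which the table describes as "mitochondrial HSO70 2" and which had 22 contigs. With it, the class counted 334 contigs on 11 genes with a median of 12. This gene was looked up after its value was seen.

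HSP90 works as a dimer and depends on a set of co-chaperones. HSP90.1, a heat-inducible cytosolic form in Arabidopsis, had 130 contigs, and the cytosolic HSP90.4 103, whereas the mitochondrial HSP90.6 (AT3G07770) had 1. The median of 103 therefore describes 3 very different genes, and it was 52 without HSP90.1. It was 7, below the 9.5 of HSP70, when the 4 HSP90-like ATPases described last were counted as HSP90. A pair of organellar forms is described in the table as chaperone protein htpG, the bacterial name of HSP90, and falls outside the rule. These were HSP90.7 (AT4G24190, also SHEPHERD) of the ER with 22 contigs and HSP90.5 (AT2G04030, also CR88) of the plastid with 5. With both, 5 HSP90 genes held 261 contigs, with a median of 22. In HSP70 as in HSP90 most contigs thus belonged to cytosolic forms.

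Closely related Arabidopsis genes were not represented in equal parts, and in several sets a single gene took the contigs of all. Of the 3 BiP genes, BIP2 had 72 contigs and BIP1 (AT5G28540) and BIP3 (AT1G09080) had 0. Of the 4 cytosolic HSP90 genes, HSP90.2 (AT5G56030) and HSP90.3 (AT5G56010) had 0. The cytosolic HSC70-2 (AT5G02490) and HSC70-3 (AT3G09440), MTHSC70-1 (AT4G37910) and the mitochondrial HSP60 relatives HSP60-2 (AT2G33210) and HSP60-3A (AT3G13860) also had 0. The DnaJ homologues J2 (AT5G22060) and J3 (AT3G44110) had 33 and 2 contigs. A count of 0 says that no contig carries the code and does not show that a counterpart in willow is missing. How the code was chosen among close relatives was not tested. The cytosolic HSP90 set held 233 contigs, the cytosolic HSP70 set 206, BiP 72 and the J2 and J3 pair 35. The sets were put together after the counts had been seen.

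**Figure D2:**
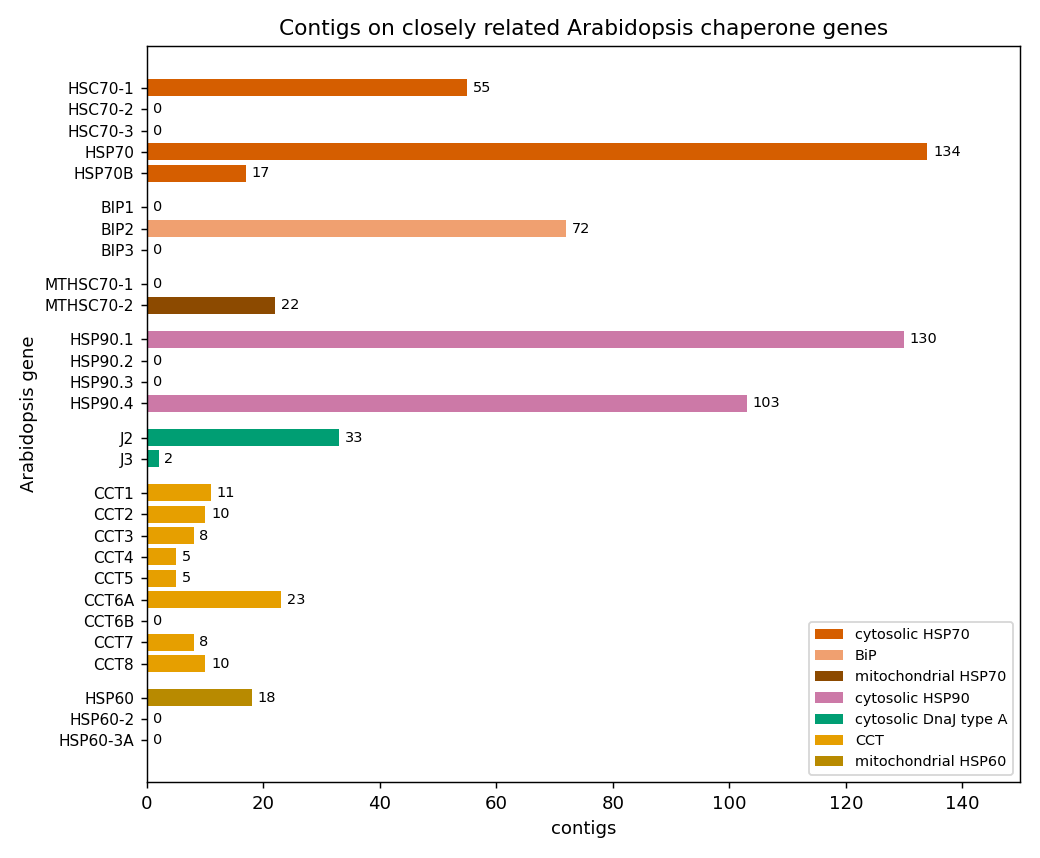
Contigs (x axis) on 28 Arabidopsis chaperone genes in 7 sets of closely related genes or subunits, 1 bar per gene with its count. All contigs of the BiP, mitochondrial HSP70 and mitochondrial HSP60 sets lie on 1 gene each, and 10 genes have 0 contigs.

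DnaJ proteins share the J domain that stimulates HSP70, and otherwise differ widely in build and place. Of the 89 genes, 67 had 2 to 9 contigs, 18 had 1 and 4 had 10 or more. J2, the cytosolic type with the full set of DnaJ domains, led with 33 contigs, beside a class mean of 3.64. This was 10.2% of the class, the lowest share of a leading gene among the 5 classes. Such a share depends on the number of genes, which is largest in DnaJ, and is no measure of evenness between classes. J2 was followed by AT2G20560, described as a DNAJ heat shock family protein, with 16 contigs. ERDJ3B (AT3G62600), a partner of BiP in the ER lumen, and AT3G11450, in which the J domain is joined to a Myb-like DNA-binding domain, had 10 each. AT5G12430, with tetratricopeptide repeats beside the J domain, had 9. DnaJ members with a role known from Arabidopsis ranged from 8 contigs to 1. ARG1 (AT1G68370), needed for root gravitropism in Arabidopsis, had 8, the ER translocation partner ERDJ2A (AT1G79940) 5, GRV2 (AT2G26890), which acts in endosomal sorting, 3, the mitochondrial ATJ1 (AT1G28210) 2 and the plastid division protein ARC6 (AT5G42480) 1. These were chosen for their role after the counts had been seen. By description, the largest groups were the DnaJ-domain superfamily with 37 genes and 124 contigs and the proteins with an N-terminal DNAJ domain with 23 genes and 58 contigs, and no gene of either group exceeded 8 contigs.

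Chaperonins form rings of subunits. CCT (also TCP-1), the ring of the cytosol that folds actin and tubulin, is built from different subunits, each with its own gene. The rule found 7 of these genes with 69 contigs. CCT6A (AT3G02530) had 23 contigs, CCT2 (AT5G20890) and CCT8 (AT3G03960) 10 each, CCT3 (AT5G26360) and CCT7 (AT3G11830) 8 each, and CCT4 (AT3G18190) and CCT5 (AT1G24510) 5 each. CCT1 (AT3G20050), described only as T-complex protein 1, fell outside the rule with 11 contigs, and CCT6B (AT5G16070), a second gene for the same subunit as CCT6A, had 0. With CCT1, every subunit from CCT1 to CCT8 was represented, by 5 to 23 contigs (median 9). The leading gene held 28.8% of the 80 contigs of the ring. This share is not set against HSP70 or HSP90, which have other numbers of genes and span several compartments.

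The organellar chaperonins are relatives of bacterial GroEL and GroES. HSP60 (AT3G23990) of the mitochondrion had 18 contigs and its co-chaperonin CPN10 (AT1G14980) 2. The plastid ring, known for its part in the assembly of Rubisco, was represented by CPN60B2 (AT3G13470) with 5 contigs, CPN60A2 (AT5G18820) with 4, CPN60A1 (AT2G28000) with 2 and CPN60B4 (AT1G26230) with 1. Its co-chaperonin CPN20 (AT5G20720) had 4. The chaperonin-like RbcX proteins, which also serve Rubisco assembly, had 3 (AT5G19855) and 1 (AT4G04330). The 4 plastid ring genes found by the rule together had 12 contigs, fewer than HSP60 alone. Further genes of this ring were not looked up by code.

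Small HSPs carry the alpha-crystallin (HSP20) domain. Genes assigned here to the cytosolic, plastid or mitochondrial small HSPs made up 8 of the 21 genes of the class and 56 of its 106 contigs. The class I gene HSP17.8 (AT1G07400) had 27 contigs, 25.5% of the class, followed by HSP17.6C (AT1G53540) with 9 and the mitochondrial HSP23.6 (AT4G25200) with 6. HSP17.6B (AT2G29500), the class II gene HSP17.6II (AT5G12020), the plastid HSP21 (AT4G27670) and the mitochondrial HSP23.5 (AT5G51440) had 3 each, and AT1G54050 of class III had 2. These 8 genes were picked by their assignment to the cytosol, plastid or mitochondrion. That each of these is represented follows from the choice and does not show that all groups of small HSPs are covered. The other 13 genes of the class share the description as HSP20-like chaperones and had 50 contigs. They include proteins with another role, such as the HSP90 co-chaperones p23-1 (AT4G02450) with 11 contigs and p23-2 (AT3G03773) with 4, BOB1 (AT5G53400), a NudC-related protein of Arabidopsis development, with 7, and RTM2 (AT5G04890), which restricts the spread of a virus, with 4. The label small HSP therefore fits only a part of the class.

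Of the 18 remaining members, 12 were heat shock factors with 37 contigs, between 1 and 6 contigs each. HSFB4 (AT1G46264, also SCHIZORIZA), which patterns root cell layers in Arabidopsis, had 6, HSFA1D (AT1G32330), one of the master regulators of the heat response, 5, and HSFA3 (AT5G03720), HSFA6B (AT3G22830) and HSFB2A (AT5G62020) 4 each. HSFA2 (AT2G26150), HSFA4A (AT4G18880) and HSFA8 (AT1G67970) had 3 each, HSFB3 (AT2G41690) 2, and HSFA1B (AT5G16820), HSFB1 (AT4G36990) and HSFC1 (AT3G24520) 1 each. HSFA4C (AT5G45710) and HSFA5 (AT4G13980) with 2 contigs each and HSFB2B (AT4G11660) with 1 were described as winged-helix factors and were not members. Of a list of 21 factors, 15 were matched, and HSFA1A (AT4G17750), HSFA1E (AT3G02990), HSFA6A (AT5G43840), HSFA7A (AT3G51910), HSFA7B (AT3G63350) and HSFA9 (AT5G54070) had 0 contigs. The median of the 15 was 3 contigs, the same as over all genes of the table. The others were HIP1 (AT4G22670), a co-chaperone of HSP70, with 11 contigs, and HSP101 (AT1G74310), which pulls proteins out of aggregates, with 5. The last 4 genes were described as HSP90-like ATPases. They share the ATPase fold of HSP90 but are no HSP90 chaperones, and had 8 (AT1G19100), 7 (AT4G24970), 4 (AT4G36280) and 2 contigs (AT4G13750, NOV).

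Partner genes outside the rule were looked up by code. Beside the heat shock factors, the list had 34 genes, of which 25 were matched, 5 of them members and 20 not. The median of the matched genes was 5 contigs. Among calreticulins and calnexins, which bind glycoproteins in the ER, CRT1a (AT1G56340) had 84 contigs, CRT3 (AT1G08450) 22 and CNX1 (AT5G61790) 19. Among the partners of HSP90 and HSP70, the HOP gene AT4G12400, which links both chaperones, had 18 contigs, SGT1B (AT4G11260) and the immunophilin ROF2 (AT5G48570) 12 each, ROF1 (AT3G25230) 11, CHIP (AT3G07370), a ubiquitin ligase for chaperone clients, 3, and RAR1 (AT5G51700) 2. BAG7 (AT5G62390) had 8, BAG1 (AT5G52060) 6, BAG4 (AT3G51780) 4 and BAG6 (AT2G46240) 1. The BAG proteins are regulators of HSP70. The plastid and mitochondrial relatives of HSP101, CLPB3 (AT5G15450) and CLPB4 (AT2G25140), had 5 and 3, beside a median of 3 and an upper quartile of 5 over all genes of the table. The GrpE nucleotide exchange factors AT5G17710 and AT4G26780 had 3 and 2, and the transcriptional coactivator MBF1C (AT3G24500) had 4. The HOP genes AT1G12270 and AT1G62740, SGT1A (AT4G23570), GrpE AT5G55200, HSBP (AT4G15802), calnexin AT5G07340 and calreticulin AT1G09210 had 0, as did BIP1 and BIP3.

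The name of a contig shows the assembly it was kept from. The reads had been assembled with Trinity and with CLC Genomics Workbench, and similar sequences were then collapsed. The names of Trinity contigs carry V1 or V2, called here the first and the second Trinity assembly. Of the member contigs, 732 (63.2%) came from the first Trinity assembly, 178 (15.4%) from the second and 249 (21.5%) from CLC, beside 52.9%, 21.4% and 25.8% of all contigs with a code. The share of the first Trinity assembly was 68.8% in HSP90 and in the chaperonins, 67.0% in HSP70 and 66.0% in the small HSPs, and 52.8% in DnaJ, which lay close to the whole table. For HSP70 (AT3G12580) it was 82 of 134 contigs, with 19 from the second Trinity assembly and 33 from CLC. HSP90.1 had 93, 18 and 19 contigs from the 3 assemblies, HSP90.4 67, 18 and 18, BIP2 57, 6 and 9, and HSC70-1 35, 10 and 10. The leading genes were therefore found by each assembly on its own. In contrast, HSP17.6C had 6 of its 9 contigs from CLC, and all 6 contigs of HSP23.6 came from the first Trinity assembly. Because similar sequences were collapsed, a gene without a kept contig from an assembly may still have been assembled there. Of the 157 members, 37 had contigs in all 3 assemblies, beside 3566 of the 13764 genes of the table. Another 14 members were represented by CLC contigs alone. Genes with CLC contigs alone were not counted over the whole table, so the 14 are not read as a trait of the family.

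**Figure D3:**
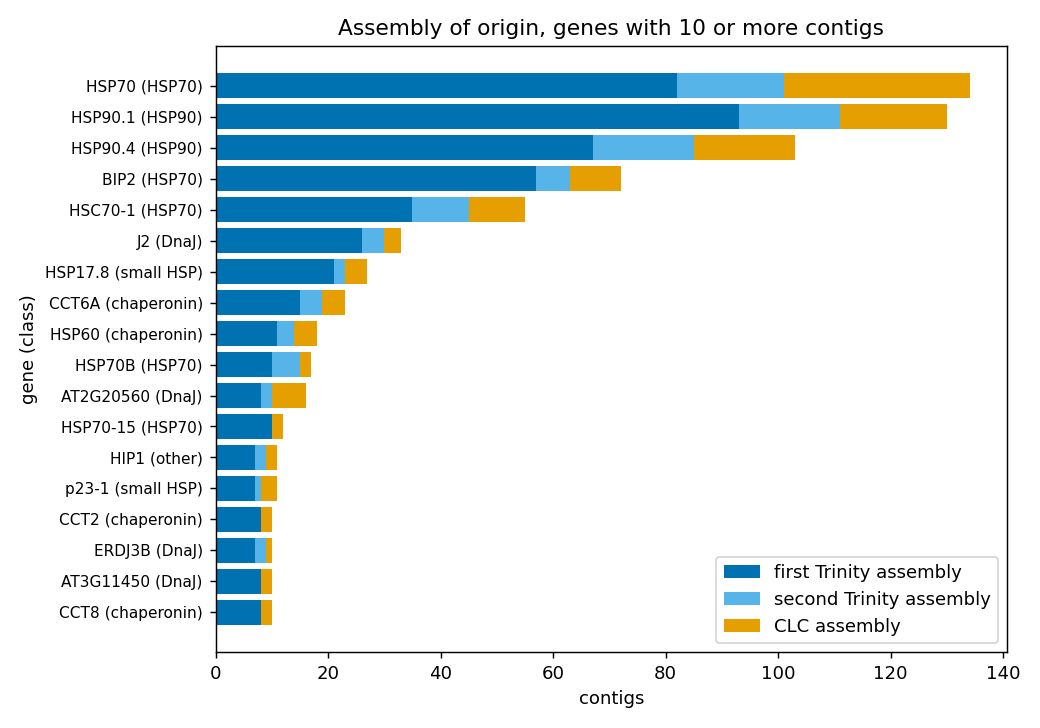
Contigs (x axis) of the 18 members with 10 or more contigs, with the part of each bar that came from the first Trinity, second Trinity and CLC assembly in colour. The first Trinity assembly gave the largest part for every gene, and HSP70-15, CCT2, CCT8 and AT3G11450 had no contig from the second.

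Trinity groups its transcripts into genes, meant to hold the isoforms of a locus. A component is here a wider set, of all contigs of the same Trinity assembly whose names share the DN number. The contigs of the leading members lay in many Trinity genes, most of them with a single contig. Trinity genes with a single contig are common throughout. Counted for each Arabidopsis gene, they were 84.2% in the family, 75.6% in DnaJ and 73.3% over all genes of the table. The 101 Trinity contigs of HSP70 (AT3G12580) lay in 84 Trinity genes, of which 72 held a single contig, and at most 6 contigs shared a Trinity gene. The 111 contigs of HSP90.1 lay in 87 Trinity genes, the 85 of HSP90.4 in 74, the 63 of BIP2 in 59 and the 45 of HSC70-1 in 40. Within the first Trinity assembly alone, HSP70 was found in 71 Trinity genes of 50 components and HSP90.1 in 74 of 57. HSP90.4 was found in 59 of 36 and BIP2 in 53 of 38. Whether several of these Trinity genes come from the same locus was not tested, so they are not numbers of loci. The family as a whole had 1.23 contigs per Trinity gene, beside 1.44 over all genes of the table. The ratio was 1.11 in small HSPs, 1.14 in HSP70, 1.18 in chaperonins, 1.22 in HSP90 and 1.37 in DnaJ. Some DnaJ genes deviated in the other direction, such as AT5G12430 with 7 Trinity contigs in 2 Trinity genes.

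**Figure D4:**
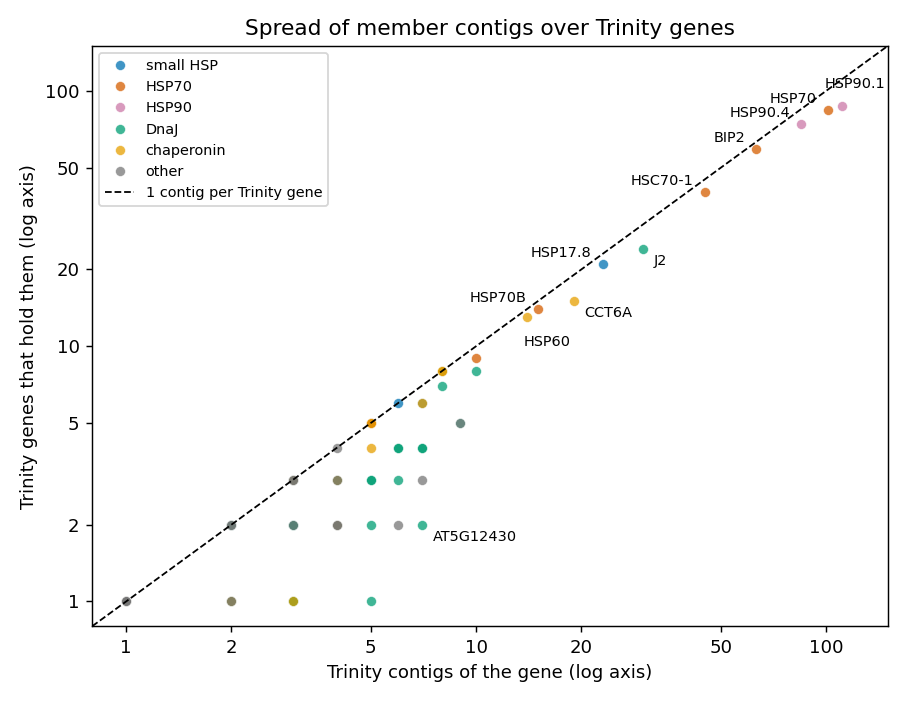
Trinity contigs of each member (x axis, log scale) against the number of Trinity genes that hold them (y axis, log scale), 1 point per Arabidopsis gene, coloured by class, where points of equal values overlap. The dashed line marks 1 contig per Trinity gene, and the members with the most contigs lie close to it.

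Contigs with different codes could share a Trinity gene or component. A shared Trinity gene shows where the assignment to Arabidopsis genes divides sequences that Trinity had joined. A shared component is only a shared DN number and does not show this. Of the 726 Trinity genes with member contigs, 14 (1.93%) held more than 1 member gene, and 0 held members of more than 1 class. Over the whole table, 1100 of 31996 Trinity genes (3.44%) held more than 1 gene of any kind, which is a wider count than that of members alone. HSP90.1 and HSP90.4 met in 4 Trinity genes, HSP70 (AT3G12580) and BIP2 in 4, and HSP70 and HSC70-1 in 2. At the level of components, 43 of 564 (7.62%) held more than 1 member gene, and again 0 held more than 1 class, beside 3264 of 25858 components (12.6%) with more than 1 gene of any kind over the whole table. HSP90.1 and HSP90.4 shared 15 of the 100 components with either gene, HSP70 and HSC70-1 12 of 83, and HSP70 and BIP2 11 of 93. The last pair joins a cytosolic and an ER protein, which are separate genes in Arabidopsis. Trinity genes with member contigs also held contigs of 15 coded genes outside the rule. Among these were HSP90.7 with 3 contigs and MTHSC70-2 with 1, and the other 13 genes had 1 or 2 contigs each.

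A transcript can carry more than 1 predicted coding sequence. This was the case for 20 of the 1145 transcripts of the family. The 1159 member contigs lay on 1145 transcripts, beside 64173 contigs with a code on 63361 transcripts over the whole table. The count is therefore not read as a trait of the family. On 13 of the 20 transcripts the sequences had the same member gene, among them HSP90.1 on 2 transcripts and AT2G20560 on 2. On 1 transcript the 2 sequences had the codes of different DnaJ genes, AT3G06340 and AT5G18750. On 5 a member was joined to a gene of another kind. AT1G10350 lay beside thioredoxin 2 (AT5G39950), AT1G77020 beside AT1G77000, AT5G49580 beside the F-box gene AT5G49610, AT2G35795 beside AT5G02970 and p23-1 beside AT2G27980. The last transcript paired HSP60 with a sequence without a code.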

How the data were processed

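RNA of the roots was sequenced in 12 libraries. Trimmed reads were assembled by the authors in both CLC Genomics Workbench and Trinity. After merging, cd-hit-est and TransDecoder served as filters, and the remaining transcripts were compared by BLAST with those of *S. purpurea*. The deposited table lists 86843 contigs in 5 columns of names and text, with a transcript, an Arabidopsis gene model, symbols and a description. It holds no count of reads and no score, so that depth and precision per library cannot be read from it, and CC, MT and MC were not compared with CT. Members were found by description, gene models were reduced to genes, and contigs, transcripts, Trinity genes and components were counted from the names. Contigs without a Trinity name carry the name of the other assembly and were taken as CLC contigs. Classes followed the description, with HSP90-like ATPases set apart by code. Gene names and roles that the table does not give are background.

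The genes named were the 5 with the most contigs in each class, every HSP90 and chaperonin gene, and every gene of a fixed list of partners. Any other gene named was chosen after its value was seen. The members and lists were chosen with earlier results of these data known. On a simulated table with 1200 genes, the counting gave a wrong number for 0 genes and a wrong class for 0 genes. The simulated descriptions were simple cases of each class, without the HSP90-like ATPases. The simulation therefore checks the counting and cannot show that the real descriptions were classed correctly. Counting used Python (v. 3.11.15) with pandas (v. 2.3.3) and NumPy (v. 2.4.6). Intervals came from SciPy (v. 1.17.1) and plots from matplotlib (v. 3.10.9). Alternatives were other units of counting, single assemblies, other description rules and other class borders.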

Additional observations from a re-analysis of the deposited data

How the results depend on the processing

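No paired analysis was possible because no column gives values of single libraries. Of 74 values under alternatives, 45 stayed within 1.5 times the main count or within the Wilson interval (95%) of the main share, and 29 did not. The interval serves only as a limit, since contigs of a merged assembly are not independent. Its width depends on the contigs of the class, so classes cannot be compared by it. The 1159 member contigs became 726 Trinity genes, and 732, 178 and 249 contigs in the first Trinity, second Trinity and CLC assembly alone. The 157 genes became 71 in the second Trinity assembly, 103 in CLC and 96 when HSP20-like, DnaJ-domain and cysteine-rich superfamilies were left out. Median contigs per gene moved as follows. Each median covers only the genes of the class with at least 1 contig in that setting, so genes absent from an assembly do not lower it. In the second Trinity assembly it was 1 for small HSP (main 3), 6 for HSP70 (main 9.5), 18 for HSP90 (main 103), 1 for DnaJ (main 3) and 2.5 for chaperonins (main 5). In CLC it was 1, 2, 18.5, 1 and 2 in this order. In the first Trinity assembly it was 67 for HSP90 and 3 for chaperonins, which also had 3 when Trinity genes were counted. For HSP90 it was 7 with the class taken from the description alone, 52 without HSP90.1 and 22 with the genes that the rule missed, a setting added after the data were seen. The share of the leading gene moved to 15.4% for small HSP in CLC (main 25.5%), to 53.2% for HSP70 in CLC (main 42.9%), to 15.2%, 5.71% and 3.61% for DnaJ in the first Trinity, second Trinity and CLC assembly (main 10.2%), and to 40.0% for chaperonins in the second Trinity assembly (main 21.1%). Single assemblies are here the contigs kept from each after collapsing, and they hold fewer contigs by construction. By this median, HSP90 came before HSP70 in each single assembly. HSP70 came before the other classes, except in CLC, where chaperonins had the same median. This order, with the tie, holds for genes with a contig in the assembly and was not taken over all genes of a class. With the class taken from the description alone, HSP90 (7) came after HSP70 (9.5). The HSP90 median rests on 3 genes, and in the second Trinity and CLC assemblies on HSP90.1 and HSP90.4 alone.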
